A study of Mus musculus with 20 samples.

Results

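The diet dependence of the antibody effect is the interaction of diet and antibody in mouse liver: for each gene, the log2 fold change of anti-ACBP over IgG in mice fed a methionine- and choline-deficient (MCD) diet minus the same fold change in mice fed regular chow. Genes entered when their mean normalized count was 13 or more in both deposited tables, which 14380 of 54325 genes met. For 22 of these a table lists p as 1 beside a fold change other than 0, and they were left out, so 14358 were tested. The anti-ACBP effect differed between the diets for 3348 genes, or 23.3% of those tested. It was higher on MCD for 1804 (12.6%) and lower on MCD for 1544 (10.8%). Among the gene lists described here, the largest median differences were those of major urinary proteins and other male-biased liver genes, higher on MCD, and of female-biased genes, lower on MCD.

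All groups were liver from C57BL/6 mice, and all animals received an antibody. The 4 groups were chow with the IgG isotype control, chow with the antibody against ACBP, MCD with IgG, and MCD with anti-ACBP. Chow animals are labelled healthy and MCD animals as having NASH, nonalcoholic steatohepatitis. Animal sex, age, antibody dose and the time of sampling are not among the labels used here, and the labels name liver as the tissue, with no sorting of cells.

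Acyl-CoA binding protein (ACBP), encoded by Dbi, carries activated fatty acids inside cells. Cells also release it as a signal that acts on food intake, metabolism and autophagy, and a neutralizing antibody binds the released protein. Methionine and choline are needed to make phosphatidylcholine, which the liver needs to export fat as lipoproteins. Without them the liver stores triglyceride, becomes inflamed and scars, and the animals lose weight. Many liver genes differ between male and female rodents because the pituitary releases growth hormone in pulses in males and more steadily in females, a signal read in hepatocytes through STAT5B.

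The labels list 5 samples in each group. The deposited means rest on 5 libraries per group on MCD and 4 per group on chow, as read from the values that single reads leave in the means. Which chow animals were averaged is not known here. Normalized counts (reads divided by a size factor, within each diet's table) summed to between 34621779 and 39398190 per group. The median SE of a difference was 0.22 on the log2 scale. Albumin averaged from 1971740 to 2329410 on chow and from 2348590 to 3118590 on MCD in the authors' deposited tables, IgG first, and 15 of the 16 hepatocyte markers passed the minimum count. Counts below are the authors' deposited group means, given from IgG to anti-ACBP. A difference is MCD minus chow of the deposited log2 fold changes, with the SE combined from both tables and a Benjamini-Hochberg adjusted normal p over the 14358 genes. "Rose" and "fell" on 1 diet stand for the authors' adjusted p under 0.05 there. The tables were scaled separately, so levels on the 2 diets stand side by side without a test.

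On MCD, 2806 of the genes tested rose (19.5%) and 2591 fell (18%) by the deposited calls. On chow, 811 rose (5.65%) and 929 fell (6.47%). The calls alone do not show diet dependence, because 4592 genes were called on MCD and not on chow, and the difference passed its test for 2276 of them. Of 935 genes called on chow and not on MCD, it passed for 443. Genes called on both diets split into 504 that moved the same way and 301 that moved in opposite directions. Of the 301, 226 rose on MCD and fell on chow and 75 fell on MCD and rose on chow. Relative to column totals the calls were made anew on each diet. They gave a different set of 696 genes in opposite directions, 97 of the first kind and 599 of the second. All 301 passed the test of the difference, which calls in opposite directions all but fix. Of the 504, 63 passed, 49 with the larger effect on MCD and 14 with the larger effect on chow. Among 8026 genes called on neither diet, 265 passed. These classes rest on the deposited p-values. With the deposited fold changes and SEs referred to Student's distribution, at 6 degrees of freedom on chow, no gene was called on chow after adjustment, although 2212 had an unadjusted p under 0.05 there, 390 of them with an unadjusted p under 0.05 in the opposite direction on MCD. Even C4b, with a chow fold change of -0.79 ± 0.06, missed the adjusted threshold there, so this reference is strict at so few degrees of freedom. The difference itself, at 14 degrees of freedom, passed for 2216 genes.

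**Figure D1:**
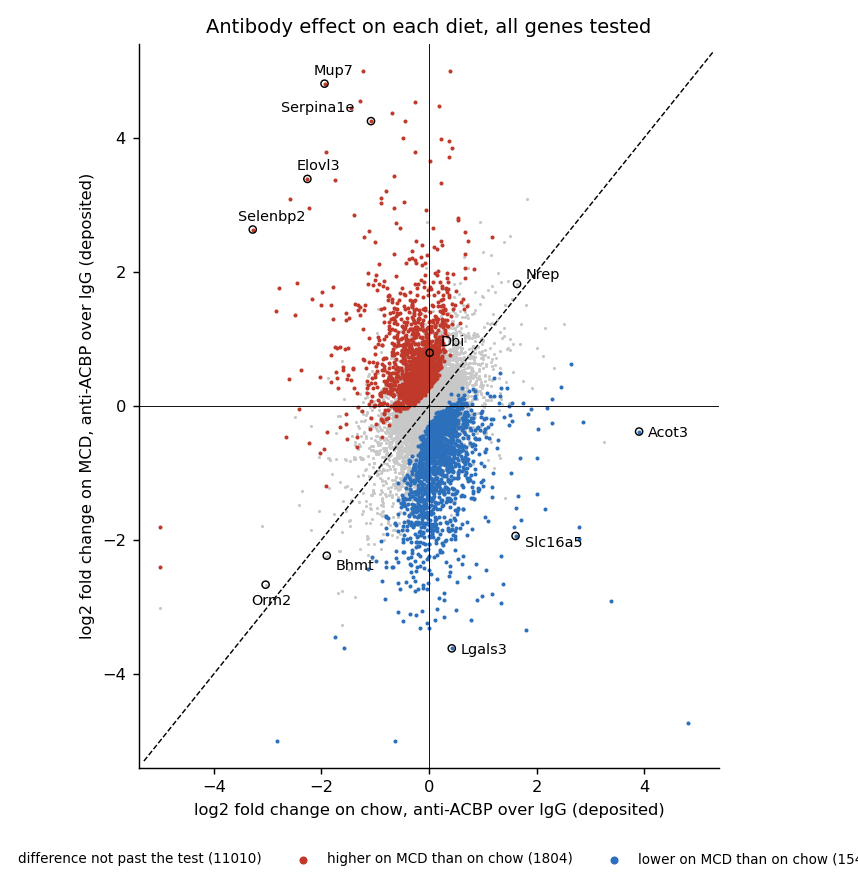
Deposited log2 fold change of anti-ACBP over IgG on chow (horizontal axis) and on MCD (vertical axis), 1 point per gene tested, with the dashed line marking equal effects. The 1804 genes higher on MCD lie above the line and the 1544 lower on MCD below it, with Mup7, Elovl3 and Selenbp2 in the upper left quadrant and Slc16a5 in the lower right.

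A likeness of effects was bounded by the interval of the difference. For 3586 genes its 95% interval lay within -0.5 to 0.5 on the log2 scale, and 36 of these still passed the test with a small difference. For 7460 genes the data showed neither a difference nor an interval that narrow. Depth set what could be bounded. Of 4001 genes whose lower mean was under 100, only 3 had such an interval, and the median SE was 0.46. Of 4111 genes with both means at 1000 or more, 1891 had one, with a median SE of 0.14. The share of genes with a difference past the test was 19.8% in the first set and 30.9% in the second.

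**Figure D2:**
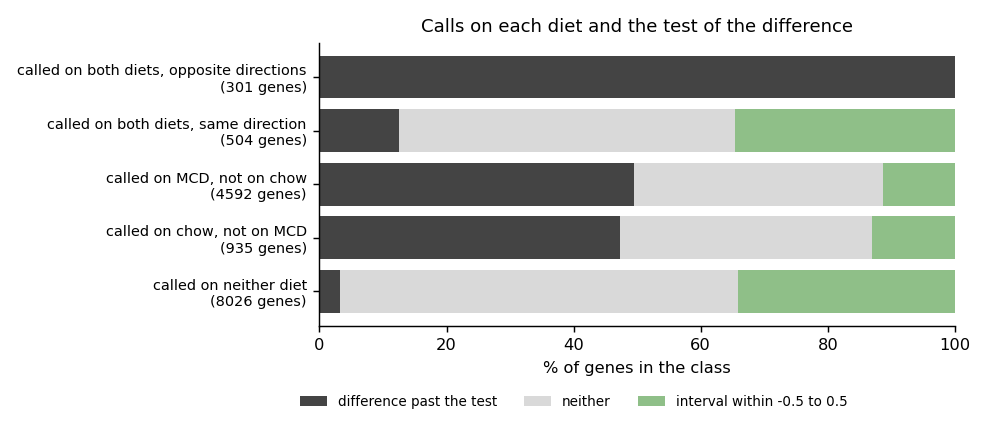
Share of genes (horizontal axis, %) in each class of deposited calls whose difference passed the test, whose difference did not pass and had a 95% interval within -0.5 to 0.5, or neither. The 301 genes called in opposite directions all passed, as that choice all but fixes, and 63 of the 504 called in the same direction did.

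Scaling bears on the direction of small differences. The group totals rose by 0.19 on the log2 scale on MCD and fell by 0.14 on chow. Expressed relative to these totals, every difference moves by -0.32, and 684 genes were higher and 4723 lower on MCD. Abundant genes move the totals themselves. On chow the total went from 38600264 to 35093280, and the 18 Mup genes tested went from 3895040 to 1814380. On MCD the total went from 34621779 to 39398190, and albumin from 2348590 to 3118590. The part of such genes in the shift of -0.32 was not tested. As deposited, the median difference over all genes was 0.02. Beside each group of genes below, the counts relative to column totals are given where they alter its direction.

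Major urinary proteins (MUPs) are pheromone carriers that the male liver secretes in large amounts under growth hormone pulses. Of 22 Mup genes listed, 18 were tested and 4 were under the minimum. The antibody effect was higher on MCD for all 18 tested, with a median difference of 3.80, and relative to column totals for 18 as well. On MCD 17 of the 18 rose, and on chow all 18 fell. Summed over the 18, the authors' deposited means went from 191116 to 763986 on MCD and from 3895040 to 1814380 on chow.

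The difference of Mup7 was 6.75 ± 0.85 (adjusted p = 3.89e-13). Its deposited mean rose from 1114 to 31204 on MCD, a ratio of 28.0, and fell from 874356 to 227539 on chow, a ratio of 0.26. Every MCD mean therefore lay below every chow mean, and the antibody moved the 2 diets toward each other. Mup14 went from 2684 to 27724 on MCD and from 363361 to 107774 on chow in the authors' deposited tables, with a difference of 5.12 ± 0.66 (adjusted p = 7.88e-13). Mup17 went from 95.2 to 809.9 and from 100186 to 16741, with a difference of 5.67 ± 1.10 (adjusted p = 7.30e-06). The fold change of Mup19 on MCD stands at the deposited end value of 5, so only its means are given, 564 to 20530 on MCD and 499371 to 212558 on chow. All 4 were called in opposite directions, with no overlap of the diets' means. Mup3, the member with the smallest SE, had a difference of 4.05 ± 0.24 (adjusted p = 1.05e-60). Its deposited mean rose from 7303 to 101154 on MCD and fell from 378963 to 317099 on chow. Mup20, known as darcin, rose from 71151 to 156682 on MCD and fell from 387921 to 249260 on chow, by the authors' deposited tables. Its difference, 1.78 ± 0.34, was next to the smallest of the 18 (adjusted p = 3.99e-06). Mup2 was the 1 member not called on MCD: it fell from 7680 to 1260 on chow, and its MCD means were 347 to 457.

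Mup genes are near-identical copies in 1 cluster on mouse chromosome 4, so their reads may be split among copies and the values of single members are uncertain. RefSeq start-site windows (GRCm38.p6, 250 bases before to 50 after the start) were at hand for 11 of the 18. The stretches below are shown because members with large and small differences carry nearly the same sequence there. Capitals mark TTATGNAA, a D-box type pattern loosened to any base at N and chosen for display after the matches were seen. All marked letters read TTATGAAA. Whether DBP, the clock output factor that binds D-boxes, binds this form was not tested. TTATGNAA lay in 9 of the 11 windows, against 3.38% of 32851 windows of all genes. All stretches are on the minus strand, from chr4:60070501-60070580 (Mup7), chr4:61304107-61304186 (Mup14), chr4:61595987-61596066 (Mup17), chr4:61782383-61782462 (Mup19) and chr4:60582316-60582395 (Mup10).
Mup7: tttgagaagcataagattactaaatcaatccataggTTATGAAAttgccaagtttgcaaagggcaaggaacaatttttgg
Mup14: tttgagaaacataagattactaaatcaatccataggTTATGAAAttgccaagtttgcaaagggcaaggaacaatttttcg
Mup17: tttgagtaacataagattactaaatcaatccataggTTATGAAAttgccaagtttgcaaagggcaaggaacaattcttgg
Mup19: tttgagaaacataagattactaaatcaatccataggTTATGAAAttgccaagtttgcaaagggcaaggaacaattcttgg
Mup10: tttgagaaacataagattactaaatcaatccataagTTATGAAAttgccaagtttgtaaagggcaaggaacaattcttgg
Mup7 and Mup10 shared 76 of these 80 bases, while their differences were 6.75 ± 0.85 and 1.77 ± 0.33. Mup18 carried the same 80 bases as Mup19, with a difference of 1.92 ± 0.32. The 9 windows were 95% to 100% identical to each other, so they are copies and not 9 separate matches.

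The other 12 patterns were searched on both strands of the same windows. Of these, CCAAT lay in 5 of the 11 Mup windows (37.4% of all windows) and the antioxidant response type TGACNNNGC in 1 (12.4%). None of the 11 held TTCNNNGAA (STAT5 type, 8.3% of all windows), CACGTG (E-box, 7.15%) or AGGTCA (nuclear receptor half-site, 16.3%). TCACNCCAC (sterol response type, 1.24%), CAAAGTCCA (HNF4 type, 0.475%) and GGGANTTTCC (NF-kB type, 0.411%) were not found there either. AGGTCANAGGTCA (0.0396%), AGGNCANAGGNCA (0.381%), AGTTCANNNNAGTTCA (0.0122%) and GTTAATNATTAAC (HNF1 type, 0.00913%) were likewise without a match. The half-site AGGTCA is part of the first of these repeats, which is in turn a case of the second.

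The male-biased list, which shares Mup3 and Mup20 with the family above, showed the same direction. Of 21 members, all tested, 20 were higher on MCD and none lower, with a median difference of 2.40. On MCD 19 rose and on chow 12 fell. Serpina1e, an alpha-1 antitrypsin of male mouse liver, had a difference of 5.33 ± 0.37 (adjusted p = 1.53e-42). Its deposited mean rose from 449 to 8534 on MCD and fell from 399981 to 189359 on chow. Slco1a1, an uptake transporter for bile acids and steroids, rose from 1442 to 10941 on MCD, while on chow its deposited means were 14770 to 14150. The difference was 2.99 ± 0.24 (adjusted p = 2.03e-32). Cyp7b1, an oxysterol hydroxylase, moved on both diets, from 812 to 3207 and from 10317 to 4701 in the authors' deposited tables. The difference was 3.12 ± 0.45 (adjusted p = 2.32e-10). Hsd3b5, a steroid reductase of male liver, rose from 227 to 3623 on MCD, with deposited means of 8438 to 6063 on chow that did not pass the call. Its difference was 4.47 ± 0.83 (adjusted p = 1.86e-06). Cyp4a12b was the member whose difference did not pass, at 0.55 ± 0.54 (adjusted p = 0.513).

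Also on this list, Selenbp2 encodes a selenium-binding protein and Elovl3 a fatty acid elongase, both abundant in male liver. Selenbp2 rose from 1405 to 8706 on MCD and fell from 42074 to 4341 on chow in the authors' deposited tables. The difference was 5.91 ± 0.80 (adjusted p = 1.30e-11). Elovl3 rose from 212 to 2219 on MCD and fell from 8238 to 1719 on chow, with a difference of 5.65 ± 0.68 (adjusted p = 1.39e-14). For both genes the deposited IgG means were higher on chow and the anti-ACBP means higher on MCD. The tables were scaled separately and the anti-ACBP means of Elovl3 lay close together, at 2219 and 1719. Whether the order of the diets changed was not tested. Ugt2b38, a glucuronosyltransferase, rose from 18.6 to 437 on MCD, with deposited chow means of 960.0 to 396 that did not pass. Its difference was 5.83 ± 0.82 (adjusted p = 1.07e-10).

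The female-biased list gave the mirror image. Of its 22 genes, 12 were tested and 10 were under the minimum on at least 1 diet, among them Sult2a1, Sult3a1, Hao2 and the Cyp3a41 genes. None of the 12 was higher on MCD and 10 were lower, with a median difference of -2.17. On chow 9 rose, and on MCD 5 fell. A member can pass the minimum on a diet through 1 high group alone and then had to differ there, so the counts lend no support beyond the description. Abcd2, a peroxisomal fatty acid transporter, rose from 139 to 564 on chow and went from 1367 to 1079 on MCD in the authors' deposited tables, a change that was not called. Its difference was -2.36 ± 0.35 (adjusted p = 1.19e-09). Fmo2 followed the same course, with a difference of -1.97 ± 0.33 (adjusted p = 7.39e-08). Cyp17a1, a steroid hydroxylase and lyase, fell from 2338 to 1075 on MCD and rose from 235 to 387 on chow, with a difference of -1.84 ± 0.34 (adjusted p = 1.88e-06).

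The growth hormone axis was mixed. Of 18 genes listed 17 were tested, 5 of them higher and 1 lower on MCD, with a median difference of 0.39; relative to column totals 3 were higher and 4 lower. Ghr, the growth hormone receptor, rose from 7101 to 14553 on MCD, with deposited chow means of 16662 to 14751. The difference was 1.21 ± 0.16 (adjusted p = 8.80e-13). Igf1, the secreted growth factor induced by growth hormone, rose from 10465 to 15719 on MCD and fell from 16086 to 12906 on chow, with a difference of 0.90 ± 0.19 (adjusted p = 4.26e-05). Repressors of sex-biased genes had differences of opposite sign. Bcl6, which represses female-biased genes in male liver, had a difference of 2.70 ± 0.59 (adjusted p = 8.33e-05). Cux2, a female-liver repressor of male-biased genes, had a difference of -4.77 ± 1.01 (adjusted p = 4.66e-05). Its deposited means were 344 to 87.2 on MCD, not called, and it rose from 16.9 to 113 on chow. The difference of Stat5b was 0.66 ± 0.14 (adjusted p = 9.17e-05) and did not pass relative to column totals, where it was 0.34. The signal inhibitors Socs2 and Cish, induced by growth hormone through STAT5, did not pass, at -0.39 ± 0.79 and 0.39 ± 1.01.

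**Figure D3:**
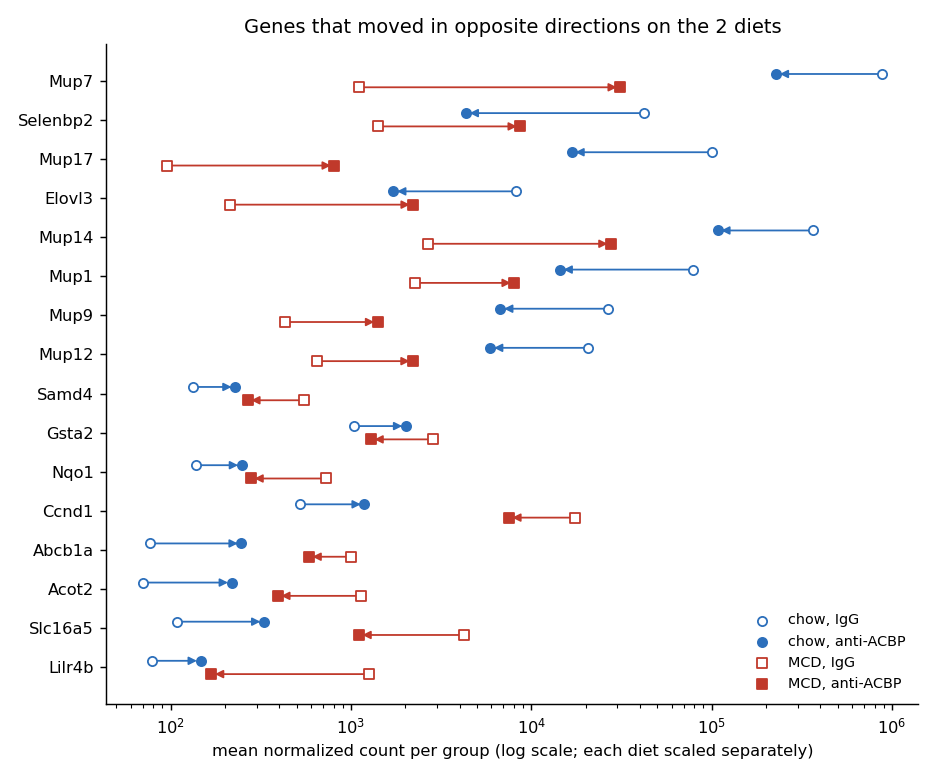
Authors' deposited mean normalized counts per group (log axis) for the 16 genes called in opposite directions with the largest smaller effect, with arrows from IgG (open) to anti-ACBP (filled) on chow (circles) and MCD (squares). In every gene the arrows of the 2 diets point in opposite ways, from 1114 to 31204 on MCD and from 874356 to 227539 on chow for Mup7.

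The reverse class holds genes that fell on MCD and rose on chow. Slc16a5, a monocarboxylate transporter, fell from 4238 to 1104 on MCD and rose from 108 to 329 on chow, by the authors' deposited tables. Its difference was -3.55 ± 0.56 (adjusted p = 9.32e-09). Acot2, a mitochondrial acyl-CoA thioesterase, fell from 1131 to 391 and rose from 70.5 to 218, with a difference of -3.16 ± 0.64 (adjusted p = 2.16e-05). Acot genes are close paralogs, so their reads may be split. Abcb1a, the multidrug exporter P-glycoprotein, fell from 1005 to 584 on MCD and rose from 76.5 to 247 on chow, with a difference of -2.47 ± 0.35 (adjusted p = 7.91e-11). Ccnd1, the cyclin that takes cells from rest into the cycle, fell from 17377 to 7479 on MCD and rose from 524 to 1187 on chow, and its difference was -2.40 ± 0.33 (adjusted p = 2.52e-11). For these 4 genes each MCD mean lay above each chow mean, and the antibody brought the diets nearer. Samd4, an RNA-binding repressor of translation, had a difference of -1.81 ± 0.29 (adjusted p = 3.74e-08).

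NRF2 is the transcription factor that turns on antioxidant and glutathione genes. Of 22 tested among 24 NRF2 targets and glutathione genes, 16 were lower and 2 higher on MCD, with a median difference of -0.67. On MCD 13 fell and 4 rose, and on chow 6 rose and 2 fell. Nqo1, a quinone reductase, fell from 730.3 to 278 on MCD and rose from 138 to 248 on chow in the authors' deposited tables. The difference was -2.23 ± 0.26 (adjusted p = 7.88e-16). Gsta2 fell from 2837 to 1287 and rose from 1033 to 2015, with a difference of -2.11 ± 0.26 (adjusted p = 8.53e-14). Its near copies Gsta1 (-3.98 ± 0.73) and Gm3776 (-4.27 ± 0.77) fell on MCD and were not called on chow, and reads of the 3 may be split. Srxn1, which repairs oxidized peroxiredoxins, fell from 7558 to 1673 on MCD and stood at 952 to 1126 on chow, a difference of -2.42 ± 0.30 (adjusted p = 8.86e-14). Gpx4, which clears lipid peroxides, differed by -0.72 ± 0.13 (adjusted p = 8.82e-07). Me1, the malic enzyme, went the other way, at 1.03 ± 0.24 (adjusted p = 1.86e-04).

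CAR and PXR are the receptors that induce drug metabolism. Of 34 genes listed 31 were tested, 11 lower and 4 higher on MCD, with a median difference of -0.28. On chow 14 rose and none fell, while on MCD 12 rose and 5 fell. The list shares Gsta1, Gstm1 and Gstm3 with the NRF2 list and Cyp2a4 with the female-biased list. Cyp2a5, the coumarin hydroxylase, rose from 15494 to 44219 on chow and stood at 61999 to 56321 on MCD in the authors' deposited tables. Its difference was -1.65 ± 0.32 (adjusted p = 7.80e-06). Cyp2a22 fell from 5925 to 943 on MCD and rose from 23.7 to 61.0 on chow, with a difference of -4.03 ± 0.55 (adjusted p = 3.10e-11). The carboxylesterase Ces2a rose from 2001 to 6009 on MCD and stood at 13028 to 15250 on chow, a difference of 1.36 ± 0.21 (adjusted p = 1.03e-08).

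PPARalpha is the fatty acid receptor that turns on fat burning in the fasting liver. All 29 of its listed targets were tested, 11 lower and 2 higher on MCD, with a median difference of -0.58. On chow 15 rose and none fell, while on MCD 4 rose and 5 fell. The list shares Acot3, Cyp4a10 and Cyp4a14 with the female-biased list. Acot3, a peroxisomal acyl-CoA thioesterase, rose from 167 to 2506 on chow and stood at 2839 to 2177 on MCD in the authors' deposited tables. Its difference was -4.29 ± 1.10 (adjusted p = 0.00104). Cyp4a14, which oxidizes fatty acids at the end of the chain, rose from 2025 to 14774 on chow, with MCD means of 31748 to 26941, a difference of -3.10 ± 0.91 (adjusted p = 0.00548). Both stood higher on MCD than on chow under IgG, and under the antibody the chow means came closer to the MCD means. Cyp4a10 followed them at -1.49 ± 0.50 (adjusted p = 0.016), and Cpt1a, which admits fatty acids to mitochondria, at -0.58 ± 0.21 (adjusted p = 0.0256). Neither passed with SEs multiplied by 1.2. Fabp1, the liver fatty acid carrier, went against them. It rose from 42988 to 144507 on MCD and from 120904 to 149548 on chow, with a difference of 1.44 ± 0.20 (adjusted p = 1.94e-11).

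The PPARalpha targets Cidec and Cd36, which store and take up fat, fell on MCD. Cidec, a lipid droplet protein that makes droplets fuse, fell from 2436 to 266 on MCD and stood at 51.1 to 87.2 on chow, by the authors' deposited tables. Its difference was -3.97 ± 0.72 (adjusted p = 1.02e-06). Cd36, the fatty acid translocase, fell from 7445 to 2078 on MCD and stood at 652 to 881 on chow, a difference of -2.28 ± 0.23 (adjusted p = 1.21e-19). Of 18 lipid droplet genes tested among 20, 6 were lower and 2 higher on MCD, with a median difference of -0.16. Plin4, a droplet coat protein, was among the lower ones at -2.18 ± 0.63 (adjusted p = 0.00441).

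Of 27 genes of mitochondrial fatty acid oxidation and ketogenesis, all tested, 15 rose on MCD, 12 rose on chow and none fell. The difference was higher on MCD for 9 and lower for 3, with a median of 0.20; relative to column totals 2 were higher and 8 lower. Slc27a5, which activates bile acids and long fatty acids, had a difference of 1.50 ± 0.17 (adjusted p = 1.54e-16). Acsl1, the main long-chain acyl-CoA synthetase, rose from 16018 to 36477 on MCD and from 24001 to 30649 on chow in the authors' deposited tables, a difference of 0.83 ± 0.21 (adjusted p = 0.00102).

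Lipid synthesis genes leaned higher on MCD as deposited. Of 23 lipogenesis genes tested among 26, 7 were higher and 3 lower, with a median difference of 0.37; relative to column totals 6 were higher and 6 lower. Scd1, the desaturase that makes oleate, rose from 12779 to 89045 on MCD and from 149847 to 218951 on chow in the authors' deposited tables. The difference was 2.25 ± 0.54 (adjusted p = 3.55e-04). Fasn, the fatty acid synthase, rose from 11793 to 45539 on MCD and stood at 26908 to 25650 on chow, a difference of 2.02 ± 0.51 (adjusted p = 8.29e-04). Thrsp, a thyroid-responsive regulator of lipogenesis, differed by 2.36 ± 0.62 (adjusted p = 0.00138), and Mlxipl, the glucose-sensing factor ChREBP, by 1.19 ± 0.18 (adjusted p = 2.54e-09). Of 25 cholesterol synthesis and uptake genes, 14 were higher and 1 lower on MCD, with a median difference of 0.74; relative to column totals 6 were higher and 1 lower. Insig1, the sterol sensor that restrains SREBP, rose from 6541 to 12240 on MCD and fell from 11872 to 7541 on chow. Its difference was 1.56 ± 0.30 (adjusted p = 7.07e-06). Sc5d, a late enzyme of the pathway, had the same opposite calls and a difference of 1.17 ± 0.23 (adjusted p = 1.30e-05).

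Bile acid genes were higher on MCD for 11 and lower for 3 of 24 tested among 25, with a median difference of 0.44; relative to column totals 9 were higher and 6 lower. Slc10a1, the bile acid uptake carrier NTCP, rose from 5266 to 16508 on MCD and stood at 15995 to 17146 on chow in the authors' deposited tables. The difference was 1.55 ± 0.20 (adjusted p = 1.38e-12). Cyp7a1, the rate-limiting enzyme of bile acid synthesis, did not pass, at -1.33 ± 0.87, with a 95% interval of -3.04 to 0.39. Cyp8b1, which makes cholic acid, had a difference of 2.13 ± 0.72 (adjusted p = 0.0175), with MCD means of 3341 to 4476 and chow means of 10137 to 3113, neither of them called, and it did not pass with SEs multiplied by 1.2.

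More matrix genes were called as falling on MCD than on chow, and the difference passed its test for a part of them. Of 33 genes of the extracellular matrix and of fibrosis that were tested among 38, 31 fell on MCD and 7 on chow. The difference was lower on MCD for 17 and higher for 1, with a median of -0.82. Col4a1, a basement membrane collagen, fell from 5409 to 1489 on MCD and from 944 to 630.1 on chow, by the authors' deposited tables. Its difference was -1.28 ± 0.25 (adjusted p = 8.64e-06). Col1a1, the main scar collagen, fell on both diets, from 1807 to 456 and from 227 to 102, and its difference of -0.83 ± 0.35 did not pass as deposited (adjusted p = 0.0642) and passed relative to column totals. Lum and Dcn, small proteoglycans that organize collagen, differed by -1.26 ± 0.24 (adjusted p = 4.14e-06) and -1.18 ± 0.23 (adjusted p = 6.77e-06). The metalloproteinase Mmp14 fell from 2468 to 1361 on MCD and stood at 772 to 939.6 on chow, a difference of -1.14 ± 0.20 (adjusted p = 2.30e-07). Fn1, fibronectin, which hepatocytes also secrete, was the member higher on MCD, at 0.36 ± 0.13 (adjusted p = 0.0233), and relative to column totals it did not pass.

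Stellate cells and fibroblasts make most of this matrix. Of 14 of their markers, all tested, 12 fell on MCD, and 6 were lower on MCD by the test of the difference and none higher, with a median of -0.80. Their summed deposited means went from 29134 to 17874 on MCD and from 8650 to 9810 on chow. Pdgfra, a growth factor receptor of fibroblasts, fell from 499 to 232 on MCD and rose from 74.4 to 128 on chow, a difference of -1.88 ± 0.24 (adjusted p = 9.97e-13). In whole liver, fewer cells of a type and less RNA per cell cannot be told apart. The matrix list shares Acta2, Col1a1, Col3a1, Dcn and Lum with these markers, and the part of the cells in the matrix result was not tested.

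Of 27 cytokine, chemokine and receptor genes tested among 37, 15 were lower and 1 higher on MCD, with a median difference of -1.14. On MCD 23 fell and on chow 3. Ccr2, the receptor that draws monocytes into tissue, fell from 350.4 to 63.1 on MCD and stood at 31.7 to 26.7 on chow, by the authors' deposited tables. Its difference was -2.22 ± 0.39 (adjusted p = 3.43e-07). Tnfrsf12a, the receptor for TWEAK, fell from 1461 to 509 on MCD and stood at 246 to 358 on chow, a difference of -2.06 ± 0.30 (adjusted p = 3.34e-10). Ccl2, the ligand of CCR2, did not pass as deposited, at -1.66 ± 0.67 (adjusted p = 0.054), and passed relative to column totals. Il18 was the member higher on MCD, at 0.69 ± 0.16 (adjusted p = 2.93e-04), and relative to column totals it did not pass. All 9 MHC class II genes tested, of 10 listed, fell on MCD and none was called on chow. The difference passed for 8, with a median of -1.29. Cd74, the invariant chain, fell from 5802 to 2068 on MCD and stood at 1470 to 1279 on chow, a difference of -1.29 ± 0.23 (adjusted p = 6.65e-07).

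Macrophage markers are described as separate lists, whose difference from each other was not tested. Of 12 lipid-associated macrophage markers, 10 were tested, all 10 fell on MCD, and 8 were lower on MCD by the test, with a median difference of -1.83. Lgals3, galectin-3, fell from 3302 to 269.5 on MCD and stood at 97.9 to 132 on chow, by the authors' deposited tables. Its difference was -4.04 ± 0.42 (adjusted p = 6.53e-19). Trem2, the receptor that marks these cells, fell from 729.8 to 86.9 on MCD and stood at 44.0 to 28.6 on chow, a difference of -2.49 ± 0.46 (adjusted p = 2.31e-06). The receptor gene Lilr4b fell from 1258 to 168 on MCD and rose from 79.1 to 146 on chow. Its difference was -3.79 ± 0.33 (adjusted p = 8.49e-27). Its close paralog Lilrb4a differed by -2.63 ± 0.36 (adjusted p = 1.46e-11), and reads of the pair may be split. Of 10 resident Kupffer cell markers tested among 11, 1 was higher and none lower on MCD, with a median of -0.03, whereas relative to column totals 3 were lower and none higher. Under the antibody on MCD, 1 rose and 2 fell. Adgre1, the F4/80 antigen, fell from 585 to 272 and Cd5l, a secreted scavenger protein, from 3714 to 2121 in the authors' deposited tables, with differences of -0.58 ± 0.32 and -0.49 ± 0.31 that did not pass. Timd4 was the 1 that passed, at 1.50 ± 0.50 (adjusted p = 0.0165), with means of 53.3 to 118 on MCD and of 121 to 94.5 on chow, and it did not pass relative to column totals or with SEs multiplied by 1.2. Of 8 monocyte and neutrophil markers tested among 12, 5 were lower on MCD. Lyz2, lysozyme, fell from 7791 to 1549 on MCD and stood at 972 to 896 on chow, a difference of -2.21 ± 0.30 (adjusted p = 2.46e-11).

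Lysosome genes, all 32 tested, were lower on MCD for 18 and higher for 1, with a median difference of -0.39. Cathepsin S (Ctss), a protease of antigen-presenting cells, differed by -2.05 ± 0.27 (adjusted p = 1.06e-11). Cd68 and Cd63, membrane proteins of macrophage lysosomes and of endosomes, differed by -1.98 ± 0.29 (adjusted p = 1.14e-09) and -2.30 ± 0.30 (adjusted p = 1.86e-12). Other members moved less. Psap, prosaposin, fell from 31219 to 18175 on MCD and stood at 13647 to 14244 on chow in the authors' deposited tables, a difference of -0.84 ± 0.12 (adjusted p = 5.54e-11). Lipa, the acid lipase, differed by -0.84 ± 0.14 (adjusted p = 2.24e-07). Glb1, a galactosidase, went the other way, at 0.77 ± 0.14 (adjusted p = 1.91e-06). The summed means of the lipid-associated macrophage markers, of which the lysosome list shares Cd68 and Ctsd, went from 41666 to 19964 on MCD and from 15335 to 13568 on chow. Ctsd made up most of these sums, at 26259 to 15815 on MCD and 10931 to 10391 on chow. The part of the macrophage markers in the lysosome result was not tested.

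Cell cycle genes were lower on MCD for 11 of 24 tested among 31, and higher for none, with a median difference of -0.99. On MCD 16 fell, and on chow 5 rose and 1 fell. Mcm2, a helicase subunit loaded before DNA replication, fell from 599 to 247 on MCD and stood at 82.1 to 98.2 on chow in the authors' deposited tables. The difference was -1.53 ± 0.36 (adjusted p = 3.11e-04). Pcna, the replication clamp, fell from 1550 to 1203 on MCD and rose from 787 to 977 on chow, a difference of -0.68 ± 0.12 (adjusted p = 1.12e-06). Mki67, the proliferation marker, fell on MCD, and its difference of -1.07 ± 0.44 did not pass as deposited (adjusted p = 0.0599) but did relative to column totals. Of 19 p53 targets tested among 20, 5 were lower and none higher on MCD, with a median of -0.60. That is 26.3% called, near the 23.3% of all genes tested. Btg2, an antiproliferative factor, fell from 1435 to 423 on MCD and stood at 362 to 298 on chow, a difference of -1.48 ± 0.32 (adjusted p = 6.29e-05).

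All 24 interferon response genes were tested, 4 lower and 3 higher on MCD, with a median difference of -0.25. The share called was 29.2%, beside 23.3% of all genes tested. Relative to column totals 12 were lower and 1 higher. On MCD 17 fell and on chow 6. Rsad2, the antiviral enzyme viperin, fell on both diets, from 776 to 162 and from 247 to 119 in the authors' deposited tables, with a difference of -1.21 ± 0.37 (adjusted p = 0.00748). Bst2, tetherin, rose from 3840 to 6227 on MCD and fell from 6876 to 5578 on chow, a difference with a 95% interval of 0.73 to 1.26 (adjusted p = 1.59e-11).

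**Figure D4:**
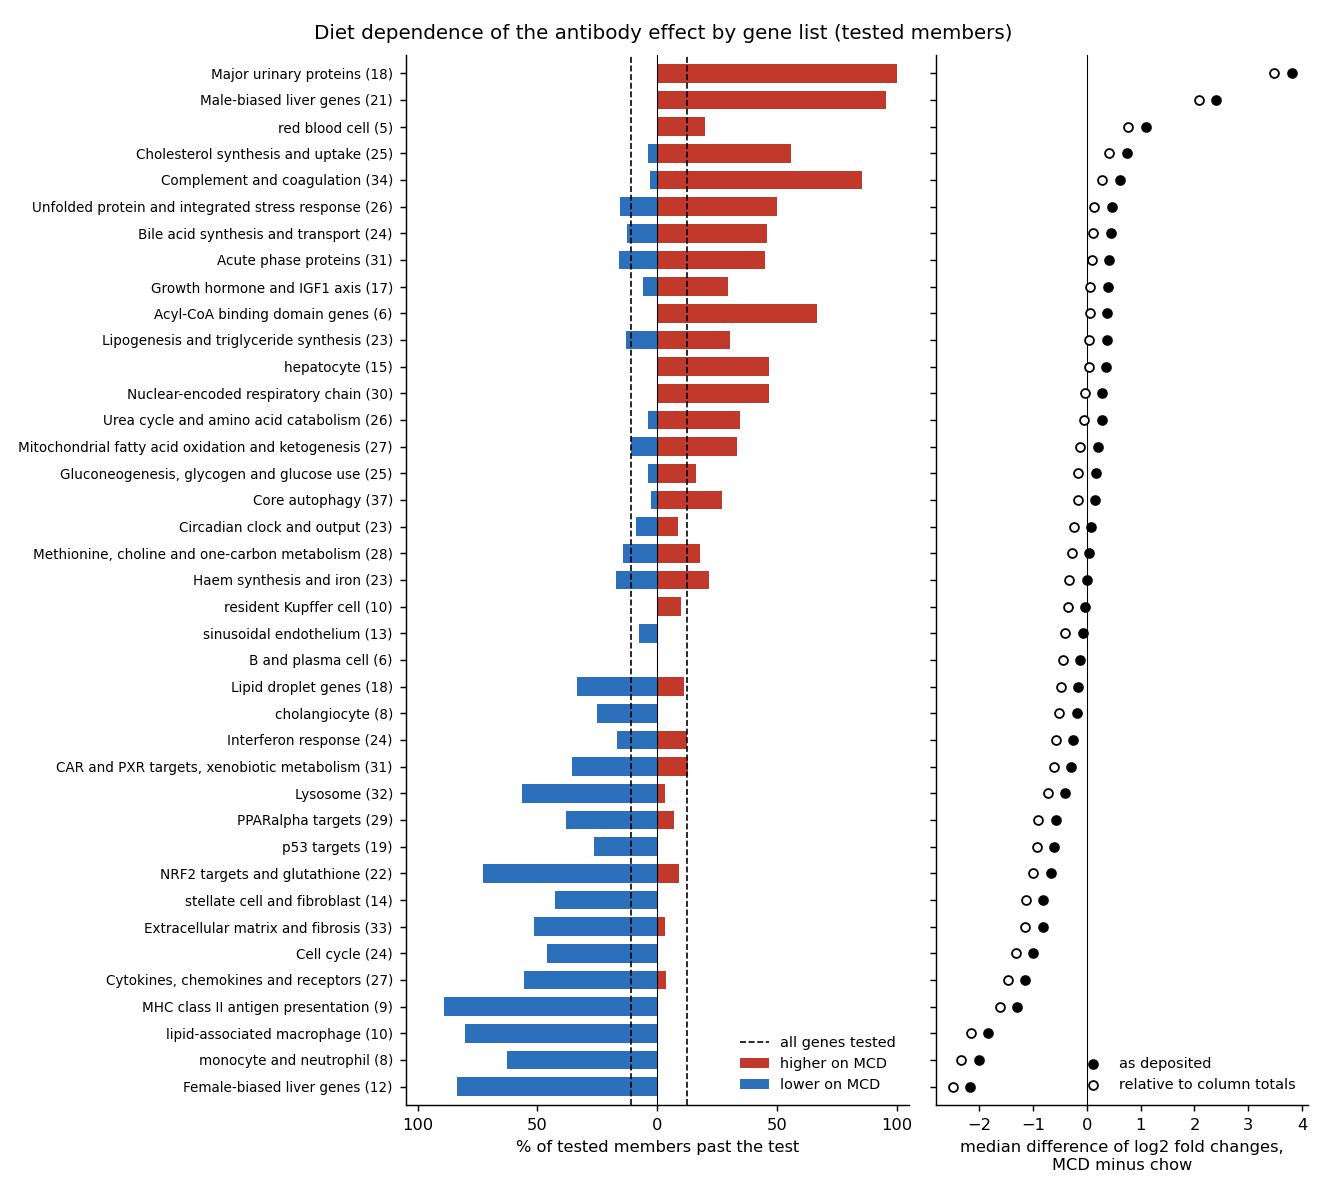
Left, share of tested members (number in brackets) of each gene list whose antibody effect was higher (right) or lower (left) on MCD, with dashed lines at 12.6% and 10.8% for all genes tested. Right, median difference of the log2 fold changes, MCD minus chow, as deposited and relative to column totals, from Major urinary proteins at the top to female-biased genes at the bottom.

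Complement and coagulation proteins are secreted by hepatocytes into blood. Of 34 complement and coagulation genes tested among 36, 29 were higher and 1 lower, with a median difference of 0.62, and relative to column totals 19 were higher and 3 lower. On MCD 25 rose and on chow 15 fell. C6, C8a and C8b are on the male-biased list as well. C8a, a chain of the membrane attack complex, rose from 5877 to 16478 on MCD and fell from 35710 to 25991 on chow, by the authors' deposited tables. Its difference was 1.95 ± 0.16 (adjusted p = 4.72e-29). C9, which completes that complex, rose from 4876 to 12490 and fell from 28101 to 15702, with a difference whose 95% interval was 1.80 to 2.59 (adjusted p = 2.37e-24). C4b, of the classical pathway, differed by 1.29 ± 0.14 (adjusted p = 4.09e-18), and the C1 inhibitor Serping1 by 1.09 ± 0.10 (adjusted p = 1.13e-23). C1qb, which macrophages make, was the member lower on MCD, at -0.89 ± 0.26 (adjusted p = 0.00486).

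Acute phase proteins were mixed. Of 31 tested among 32, 14 were higher and 5 lower on MCD, with a median difference of 0.42. On chow 20 fell and none rose, and on MCD 7 rose and 15 fell. The fibrinogen chains moved together: Fga (1.31 ± 0.16), Fgb (1.12 ± 0.13) and Fgg (1.43 ± 0.15) all rose on MCD and fell on chow (adjusted p = 2.51e-13, 1.74e-15 and 1.82e-19). Fgg, for example, rose from 60251 to 103385 on MCD and fell from 120532 to 76560 on chow in the authors' deposited tables. Saa1 and Saa2, serum amyloid A proteins of acute inflammation, fell on both diets, and on chow both stood at the end value of -5. Saa1 fell from 2854 to 816 on MCD and from 26601 to 755 on chow, and Saa2 from 1921 to 364 and from 19696 to 248. Lcn2, lipocalin-2, fell from 8024 to 213 on MCD, where it stood at the end value, and from 410.4 to 57.8 on chow. Hamp2, a hepcidin, fell from 2965 to 1371 on MCD and stood at 329.9 to 665 on chow, a difference of -2.12 ± 0.62 (adjusted p = 0.0051).

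The unfolded protein response keeps the secretory route in order, and the integrated stress response slows translation. Of 26 genes of both, all tested, 13 were higher and 4 lower on MCD, with a median difference of 0.46; relative to column totals 10 were higher and 10 lower. Among chaperones of the endoplasmic reticulum, Sdf2l1 rose from 580.5 to 1042 on MCD and fell from 1533 to 517 on chow in the authors' deposited tables, a difference of 2.41 ± 0.28 (adjusted p = 5.30e-15). Pdia6, a disulfide isomerase, differed by 1.17 ± 0.15 (adjusted p = 5.25e-12), Hsp90b1 by 0.90 ± 0.14 (adjusted p = 1.68e-08) and Hspa5, the chaperone BiP, by 0.65 ± 0.19 (adjusted p = 0.00461), the last not past the test relative to column totals. Of the stress transcription factors and their targets, Atf3 fell from 1479 to 145 on MCD and rose from 28.7 to 100.3 on chow, with a difference of -5.14 ± 0.63 (adjusted p = 8.94e-14). Trib3, a pseudokinase induced by ATF4, differed by -1.65 ± 0.36 (adjusted p = 1.00e-04), and Ddit3, which encodes CHOP, by -0.82 ± 0.31 (adjusted p = 0.0371).

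Dbi, the gene of the antibody's target, rose from 13686 to 23709 on MCD and stood at 24312 to 24526 on chow in the authors' deposited tables. The difference was 0.78 ± 0.13, with a 95% interval of 0.53 to 1.03 (adjusted p = 8.14e-08), and it passed under each setting tried except calls limited to differences of at least 1. The antibody binds the protein, so the transcript is no check of neutralization. Of 7 genes with an acyl-CoA binding domain, 6 were tested, 4 of them higher and none lower on MCD, with a median of 0.38; relative to column totals 1 was higher and 1 lower. Acbd4, Acbd5 and Acbd6 passed as deposited and did not pass relative to column totals.

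Core autophagy genes, which build and regulate the autophagosome, were all 37 tested. The antibody effect was higher on MCD for 10 and lower for 1, with a median difference of 0.16. The share called was 29.7%, beside 23.3% of all genes tested. Relative to column totals 3 were higher and 9 lower. Ulk1 and Ulk2 are the kinases that start autophagy. Ulk1 rose from 3432 to 5383 on MCD and stood at 5307 to 4592 on chow in the authors' deposited tables, a difference of 0.86 ± 0.18 (adjusted p = 4.66e-05). Ulk2 rose from 1273 to 2225 on MCD and fell from 2397 to 1969 on chow, a difference of 1.09 ± 0.16 (adjusted p = 5.04e-10). Wipi1, which binds the growing membrane, differed by 0.83 ± 0.17 (adjusted p = 1.16e-05). Sqstm1, the cargo receptor p62 and also an NRF2 target, was the member lower on MCD. It fell from 36129 to 16761 on MCD and from 16581 to 13640 on chow, with a difference of -0.83 ± 0.18 (adjusted p = 1.15e-04). Map1lc3b (LC3B), Becn1 and Atg7 did not pass, with 95% intervals of -0.05 to 0.55, -0.13 to 0.45 and -0.31 to 0.40.

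Nuclear-encoded genes of the mitochondrial respiratory chain showed small and even differences. Of 30, all tested, 24 rose on MCD and 1 on chow, and 14 were higher and none lower on MCD, with a median of 0.28. Relative to column totals none was higher and none lower, so their direction rests on the scaling. Ndufa9, a complex I subunit, rose from 2868 to 3933 on MCD and stood at 3385 to 3346 on chow, by the authors' deposited tables. Its difference was 0.47 ± 0.10 (adjusted p = 6.14e-05).

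Of the remaining metabolic lists, glucose genes were called for 20%, near the 23.3% of all genes tested, one-carbon genes for 32.1%, urea cycle and amino acid genes for 38.5%, and haem and iron genes for 39.1%. Urea cycle and amino acid genes were higher on MCD for 9 and lower for 1 of 26, with a median of 0.28; relative to column totals 3 were higher and 4 lower. Otc, the mitochondrial step of the urea cycle, rose from 6311 to 11947 on MCD and fell from 14314 to 12366 on chow in the authors' deposited tables, a difference of 1.13 ± 0.15 (adjusted p = 4.54e-12). Glucose genes were higher for 4 and lower for 1 of 25, with a median of 0.17; relative to column totals 1 was higher and 4 lower. Pygl, liver glycogen phosphorylase, differed by 1.31 ± 0.18 (adjusted p = 3.30e-11). Genes of one-carbon metabolism and of methionine and choline, which the diet lacks, were higher for 5 and lower for 4 of 28, with a median of 0.05; relative to column totals 4 were higher and 8 lower. Mat1a, which makes S-adenosylmethionine in hepatocytes, rose from 59906 to 79757 on chow and stood at 133060 to 106077 on MCD, a difference of -0.74 ± 0.19 (adjusted p = 0.00126). Pcyt2, of phosphatidylethanolamine synthesis, differed by 0.88 ± 0.13 (adjusted p = 1.14e-09). Haem and iron genes were higher for 5 and lower for 4 of 23, and relative to column totals higher for 2 and lower for 10. Tfrc, the transferrin receptor, rose from 452 to 745 on chow and stood at 1241 to 890.1 on MCD, a difference of -1.20 ± 0.28 (adjusted p = 2.93e-04).

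Clock genes were higher for 2 and lower for 2 of 23 tested among 25, with a median of 0.08. Of those tested 17.4% were called, beside 23.3% of all genes tested. Relative to column totals 1 was higher and 5 lower. By the deposited calls 5 rose and 2 fell on MCD, and 6 rose and 4 fell on chow. Nr1d1, the repressor REV-ERBalpha, fell from 7572 to 2599 on chow and stood at 4322 to 3968 on MCD in the authors' deposited tables. Its difference of 1.42 ± 0.48 (adjusted p = 0.0172) did not pass relative to column totals. Nfil3, a repressor that binds the D-box, fell from 1061 to 475 on chow and stood at 371 to 446 on MCD, a difference of 1.43 ± 0.36 (adjusted p = 8.95e-04). The time of sampling within the day was not used here, so its part in these values was not tested.

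Some genes were called on chow and not on MCD, with a difference past the test. Mfsd2a, the carrier of lysophosphatidylcholine, rose from 747 to 3641 on chow and stood at 9388 to 10087 on MCD in the authors' deposited tables. Its difference was -2.18 ± 0.44 (adjusted p = 1.49e-05). Among those that fell on chow, Scara5, a ferritin receptor, went from 523 to 83.4 there and from 153 to 111 on MCD, a difference of 2.19 ± 0.69 (adjusted p = 0.0102). Nucb2, the precursor of nesfatin, fell from 208 to 56.6 on chow with MCD means of 269.8 to 205, a difference of 1.49 ± 0.33 (adjusted p = 1.08e-04). Arhgap26, which switches off small GTPases, differed by 2.25 ± 0.34 (adjusted p = 1.38e-09). The other members of this class named by the rule were A930033H14Rik (-1.95 ± 0.34), Gm7536 (-2.02 ± 0.63), Hist2h2aa1 (2.37 ± 0.68) and Rarres1 (1.33 ± 0.47). The last of these did not pass relative to column totals.

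Genes called the same way on both diets formed the counterpart. Of the 504, 272 rose on both and 232 fell on both, and 175 had a 95% interval within -0.5 to 0.5. Orm2, an acute phase glycoprotein, fell from 2538 to 399.8 on MCD and from 1254 to 153 on chow in the authors' deposited tables. The difference was 0.37 ± 0.53, with a 95% interval of -0.66 to 1.40. Bhmt, which remakes methionine from betaine, fell from 184863 to 39261 on MCD and from 77954 to 20881 on chow, a difference of -0.33 ± 0.54 and an interval of -1.40 to 0.73. Chka, choline kinase, fell from 1776 to 663 and from 1400 to 516, with a difference of 0.02 ± 0.34 and an interval of -0.64 to 0.68. All 3 fell on each diet, and the intervals still allow differences larger than 0.5. Cdkn1a, the cell cycle inhibitor p21, fell from 1281 to 118 on MCD and from 182 to 54.4 on chow, and its larger fall on MCD passed the test at -1.70 ± 0.64 (adjusted p = 0.0359). It did not pass with SEs multiplied by 1.2, a Student reference or no minimum count. Saa3 and Rhbg, an ammonia transporter, fell on both diets with differences of 0.15 ± 0.65 and -0.85 ± 0.36.

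Of those that rose on both diets, Ces1d, a lipid-hydrolysing carboxylesterase, went from 5683 to 19545 on MCD and from 17441 to 39370 on chow in the authors' deposited tables. The difference was 0.61 ± 0.42, with an interval of -0.22 to 1.43. Cyp46a1, cholesterol 24-hydroxylase, rose from 70.5 to 279 and from 96.4 to 233, a difference of 0.70 ± 0.39. Nrep, Osbpl5, Setd4 and Ccne1 completed the set, with differences of 0.18 ± 0.81, -0.48 ± 0.65, 0.48 ± 0.37 and -0.21 ± 0.50, and none passed the test.

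**Figure D5:**
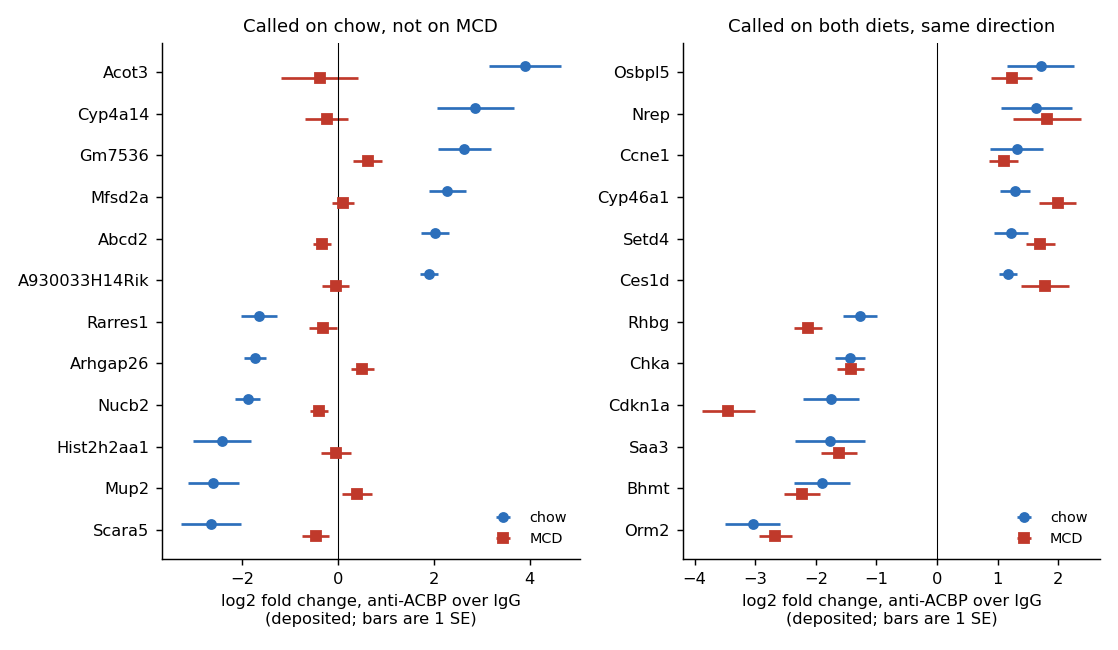
Deposited log2 fold changes of anti-ACBP over IgG (horizontal axis, bars 1 SE) on chow (circles) and MCD (squares) for 12 genes called on chow and not on MCD with a difference past the test (left) and 12 genes called the same way on both diets (right). On the left the MCD values lie between -0.46 and 0.62, as for Acot3 at -0.38 ± 0.80 against 3.91 ± 0.75 on chow; on the right only Cdkn1a, at -1.70 ± 0.64, had a difference past the test.

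Markers of other cell types moved with some of these results. Of 15 hepatocyte markers tested, 7 were higher and none lower on MCD, with a median difference of 0.36, and relative to column totals 5 were higher. Their summed deposited means went from 4525220 to 5713420 on MCD and from 4149790 to 4405780 on chow. Of 13 sinusoidal endothelial markers, 1 was lower (Lyve1, a hyaluronan receptor, -1.28 ± 0.39) and none higher, while relative to column totals 6 were lower. Of 8 cholangiocyte markers tested among 12, 2 were lower, or 25%, near the 23.3% of all genes tested. None of the 3 T and NK cell markers tested among 14, and none of 6 B and plasma cell markers tested among 9, passed. Of 5 red blood cell markers tested, Alas2 was higher on MCD at 1.28 ± 0.26 (adjusted p = 1.48e-05). The haemoglobin genes Hba-a1, Hba-a2, Hbb-bs and Hbb-bt rose on MCD, with differences between the diets of 0.96 to 1.42 that missed the threshold. Of 7 adipocyte markers only Car3, which liver also makes, was tested, at 1.90 ± 0.28 (adjusted p = 6.97e-10). Of 8 acinar markers 2 were tested, and Cela1 differed by 1.56 ± 0.25 (adjusted p = 3.62e-08). No muscle marker was tested: Acta1 and Ckm have p listed as 1 on chow and were left out. Their chow means went from 236 to 14.1 and from 269.5 to 12.2, and whether a single library carried these means is not known here. The part of cell composition in the metabolic, secretory and sex-biased results was not tested.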

How the data were processed

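Strand-specific mRNA sequencing of liver RNA (RNeasy column extraction) was done in 20 labelled samples, 5 in each of 4 groups. Per the submitters' processing notes, HISAT2 2.2.1, HTSeq 0.13.5 and DESeq2 were used, with the build mm39. The authors deposited 1 table per diet. Per the file headers, these hold group means of normalized counts (a signal: reads divided by size factors), log2 fold changes (anti-ACBP over IgG, ending at -5 and 5) with their SEs, and p-values raw and adjusted. The deposited p-values carry 6 decimals, so the smallest are listed as 0. Whether the count used strand, multi-mapping reads or filters is not given in the sources used here.

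The tables were joined on gene symbol. For genes with a mean normalized count of 13 or more in both, the log2 fold change on chow was subtracted from that on MCD, and SEs were combined as the root of their summed squares. The ratio was referred to the normal distribution, two-sided, with Benjamini-Hochberg adjustment over 14358 genes and a threshold of 0.05. Values per library were not available to this test, so no count model was fitted and no library could be left out. The procedure was tested on simulated data drawn with the deposited SEs, which does not check those SEs. Nothing in the labels says that samples were separate animals, so p-values measure only the spread between these samples. Precision is limited by 5 libraries per group on MCD and 4 on chow; size factors ranged from 0.838 to 1.08 and from 0.905 to 1.11.

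The genes and the 43 gene lists (30 pathways, 13 cell types) were chosen with earlier results of these data known. Some genes are on several lists and count in each. Named genes were those with means of 100 or more and a difference past the test: the 10 highest and 10 lowest differences; the 8 in each direction called oppositely on the diets with the largest smaller effect; and the 6 highest and 6 lowest called on chow only. To these were added 6 in each direction called alike on both diets, Dbi, 6 of highest mean at an end value, and in each list up to 5 members with the largest ratio of difference to SE plus any single member against the list. Alb, Atg7, Becn1, Ccl2, Cish, Col1a1, Cpt1a, Cyp4a10, Cyp4a12b, Cyp7a1, Cyp8b1, Ddit3, Hspa5, Map1lc3b, Mki67, Mup10, Mup18, Mup20, Socs2, Trem2, Trib3, the haemoglobin genes and the non-coding RNAs fall outside this rule and were chosen after their values were seen. Some genes that the rule names are not reported here. At the minimum, Smim24 and Gm36371 lay just inside (lower means 13.0034 and 13.0075) and Col24a1 and Nrg1 just outside (12.9854 and 12.9805). Start-site sequences are RefSeq's on GRCm38.p6, which differs from the build of the tables. Alternatives covered scaling, centring, minimum count, reference distribution, SE size, fold-change column, end values and size of difference. Python 3.11.15, pandas 2.3.3, NumPy 2.4.6, SciPy 1.17.1 and matplotlib 3.10.9 were used.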

Additional observations from a re-analysis of the deposited data

Results flagged for a closer look

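In 301 genes the antibody moved expression in opposite directions on the 2 diets, each effect past the authors' threshold. That choice all but fixes a difference past the test, so the test adds no support for the class. Among the genes that rose on MCD and fell on chow were Mup7 (6.75), Selenbp2 (5.91), Mup17 (5.67), Elovl3 (5.65), Mup14 (5.12), Mup1 (4.30), Mup9 (3.69) and Mup12 (3.57), where each value is the difference of the log2 fold changes, MCD minus chow. The genes that fell on MCD and rose on chow included Lilr4b (-3.79), Slc16a5 (-3.55), Acot2 (-3.16), Abcb1a (-2.47), Ccnd1 (-2.40), Nqo1 (-2.23), Gsta2 (-2.11) and Samd4 (-1.81). Of these 16, Mup1, Mup7, Mup9, Mup12, Mup14 and Mup17 are near-identical copies whose reads may be split.

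Some genes were measured outside the comparison. Of 1096 genes that had a mean of 13 or more on MCD and less on chow, 456 were called on MCD in the authors' deposited table, 438 falling and 18 rising, beside 18% falling and 19.5% rising among the 14358 genes tested. A gene high in the MCD IgG group alone passes on MCD only and then had to fall, so the balance of falls and rises is in part set by the choice of genes and nothing is read from it. Of 225 genes at or over the minimum on chow only, 19 were called there, 5 rising and 14 falling.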

How the results depend on the processing

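Relative to column totals, 5407 genes differed between the diets, 684 higher and 4723 lower on MCD, so 12.7% of calls were higher against 53.9% as deposited. The same scaling gave 696 genes called in opposite directions (97 higher and 599 lower on MCD) and a median difference of -0.31, while centring set that median to 0 by construction. A minimum mean of 100 left fewer genes to test and 1009 lower on MCD. With Student's distribution 2216 genes differed, 1005 of them lower, and 3394 were called on 1 diet, none on both: 0 in opposite directions (0 higher, 0 lower) and 0 in the same direction. With SEs multiplied by 1.2, 2044 differed (1118 higher, 926 lower), 135 were called in opposite directions (114 and 21) and 194 in the same direction. Limited to differences of at least 1, 1289 remained by construction (542 higher, 747 lower), with 193 opposite (144 and 49) and 40 alike. Of 267 single genes followed, 29 lost and 12 gained the call and 9 never called changed sign relative to column totals, 25 lost it with SEs multiplied by 1.2 and 18 with Student's distribution; the counts of 10, 12 and 11 of 42 lists moved by over 1.5 times. The no-minimum, group-mean and end-value settings kept every total count within 1.5 times. Leaving out libraries was not run, since the tables hold group means. No paired analysis was possible because sample titles carry no shared replicate numbers and the columns are group means. Depth limited the bounds: of 4001 genes with a mean under 100, 3 could be bounded within 0.5.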

Other observations

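Long non-coding RNAs had a higher median difference than protein-coding genes. Of 971 tested, 136 were higher and 39 lower, with a median difference of 0.21, beside 0.00 for 12735 protein-coding genes, of which 1582 were higher and 1488 lower. With column totals as the scale, the medians were -0.11 and -0.32, and 79 long non-coding RNAs were higher and 104 lower, so their direction depends on the scaling. Gm15998 went from 34.8 to 191 on MCD and from 381 to 189 on chow in the authors' deposited tables, a difference of 3.46 ± 0.47 (adjusted p = 3.01e-11). Gm31583 went from 159 to 416 and from 1786 to 613, a difference of 2.93 ± 0.40 (adjusted p = 1.60e-11). Neat1, the RNA that scaffolds paraspeckles, moved the other way, from 74390 to 12099 on MCD and from 17919 to 9836 on chow, with a difference of -1.75 ± 0.30 (adjusted p = 1.83e-07).

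Some abundant genes on MCD were under the minimum on chow and fell under the antibody on MCD. Gpnmb, a glycoprotein of lipid-laden macrophages, fell from 6629 to 276 on MCD and stood at 5.24 and 4.78 on chow in the authors' deposited tables. Mmp12, macrophage elastase, fell from 3881 to 181 on MCD and stood at 11.1 and 6.83 on chow. Sult1e1, oestrogen sulfotransferase, fell from 5152 to 25.7 on MCD and stood at 0.55 and 1.68 on chow.

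Of the 22 genes left out because a table lists p as 1, several are immediate early genes. For Jun, Nr4a1 and Dusp6 that p is on chow, and for Srebf1 it is on MCD. Jun averaged 2758 under IgG and 1137 under anti-ACBP on MCD, and 545 and 1440 on chow. Nr4a1 averaged 673 and 237 on MCD, and 110 and 1007 on chow. Dusp6, a phosphatase that restrains ERK, averaged 2934 and 1586 on MCD, and 1138 and 2106 on chow. Srebf1, the lipogenic regulator, averaged 6204 and 14520 on MCD, and 8666 and 12837 on chow. The difference was not tested for these genes. Without values per library, a mean carried by a single library cannot be told apart from a shift of the whole group.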
